A study of Mus musculus with 18 samples.

Results

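The CCN family is a group of 6 small secreted proteins of the extracellular matrix, Ccn1 to Ccn6, and 2 further genes, Ankrd1 and Amotl2, were read beside it because they are used with Ccn1 and Ccn2 as readouts of the coactivator YAP. The probe sets that the platform annotation gives to exactly 1 of these genes were taken, which yielded 1 probe set for each, so all 8 genes were measured among the 19938 genes of the arrays. Older names are Cyr61 for Ccn1, Ctgf for Ccn2, Nov for Ccn3, Wisp1 for Ccn4, Wisp2 for Ccn5 and Wisp3 for Ccn6. The cells were wild type mouse embryonic fibroblasts of the C57BL/6 background, grown out of embryos of day 13 after removal of head and liver, and the labels trace the cultures to 2 mice. Every sample had been exposed to 100 nM dexamethasone, a synthetic glucocorticoid used to align the clocks of cultured cells, for 2 h. The growth protocol gives medium with 5% newborn calf serum and 5% heat-inactivated fetal bovine serum, while another field of the labels describes the serum differently, and the serum present at collection was not given. RNA was collected at 22, 26, 30, 34, 40 or 46 h, with 3 samples a time and 1 array for each of the 18 samples. No sample without dexamethasone was analysed here, so whether any change below was caused by it cannot be told.

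CCN proteins are built from a row of cysteine-rich modules, bind integrins and heparan sulphate proteoglycans, and change how cells attach, migrate and respond to growth factors. Ccn1 and Ccn2 are quickly induced by serum, by stretch and by TGF-beta. Their promoters are read by the TEAD factors, which carry YAP and its relative TAZ to DNA when the Hippo kinases are inactive, and by serum response factor. Fibroblasts are a main source of both, and Ccn2 is widely used as a marker of fibrosis.

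Promoter sequence from RefSeq (build GRCm38.p6) was held for 4 of the 8 genes, namely Ccn1, Ccn6, Ankrd1 and Amotl2. The 250 bases before the start of the 3 of these genes that hold the TEAD motif are shown 5′ to 3′ on the strand of the gene, because all 3 are known YAP targets and yet followed different courses below. Capitals mark the motif GGAATG or, on the other strand, its reverse complement CATTCC.
Ccn1, chr3:145649986-145650235, minus strand: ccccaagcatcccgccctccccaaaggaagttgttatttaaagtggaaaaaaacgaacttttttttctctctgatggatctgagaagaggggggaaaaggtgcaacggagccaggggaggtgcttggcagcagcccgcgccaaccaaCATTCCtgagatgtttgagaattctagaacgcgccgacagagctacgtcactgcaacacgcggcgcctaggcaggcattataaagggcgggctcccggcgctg
Ankrd1, chr19:36119845-36120094, minus strand: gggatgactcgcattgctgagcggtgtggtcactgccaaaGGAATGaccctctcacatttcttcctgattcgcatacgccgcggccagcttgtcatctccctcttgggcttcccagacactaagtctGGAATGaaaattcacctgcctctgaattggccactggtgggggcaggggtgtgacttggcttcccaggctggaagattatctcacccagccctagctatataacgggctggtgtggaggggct
Amotl2, chr9:102717554-102717803, plus strand: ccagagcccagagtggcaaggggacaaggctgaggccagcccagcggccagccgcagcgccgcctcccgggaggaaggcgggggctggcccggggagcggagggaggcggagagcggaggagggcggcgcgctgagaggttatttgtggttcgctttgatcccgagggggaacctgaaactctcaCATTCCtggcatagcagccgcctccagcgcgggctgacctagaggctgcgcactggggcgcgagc
The motif occurred 1 time in the Ccn1 window, from 103 to 98 bases before the start, and 1 time in the Amotl2 window, from 65 to 60 bases before it. Ankrd1 held 2 matches, which begin 210 and 123 bases before the start, and the Ccn6 window held 0. Among all 32841 promoters of this length, 12.6% hold the motif at least 1 time and 1.02% hold 2 or more. The E-box CACGTG, the element bound by the clock activators, had 0 matches in all 4 windows and occurs in 6.02% of all promoters. The CArG box, the element of serum response factor, also had 0 matches there and occurs in 1.47% of promoters. These are letters within a short window, and binding was not measured.

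Median intensity per array lay between 195.9 and 202.2 at 22 to 34 h, and between 203.8 and 210.2 at 40 and 46 h. Every array of 40 and 46 h thus stood above every earlier one in its median. With 3 arrays a time precision is set by that number. Levels below are log2(intensity + 16) after quantile normalization, and differences are on the same log2 scale. The fibroblast label was set against 10 marker genes, whose median level was 12.72, although Thy1, one of them, stood at 7.31. Median levels were 6.65 for endothelial markers, 7.22 for epithelial markers, 6.97 for macrophage and blood markers, 7.19 for skeletal and cardiac muscle markers, 7.68 for neural markers and 8.63 for cartilage and bone markers. The smooth muscle list, with Acta2 and Tagln that fibroblasts also express, had a median of 9.17. The share of the spread within times that lay along 1 component was 33.8%, and replicate 2 at 22 h and replicate 2 at 40 h lay farthest from 0 on it. In bulk RNA, a change in the number of cells that express a gene cannot be told apart from a change in RNA per cell.

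Over the 6 times, 5 of the 8 genes changed by limma's F test at an adjusted p under 0.05, against 19.8% of all genes. These were Ccn1 (adjusted p = 7.92e-05), Ccn2 (0.00866), Ankrd1 (0.0137), Amotl2 (0.0204) and Ccn3 (0.0239). The range between the highest and the lowest time mean was 0.60 for Ccn1, 0.50 for Ccn3, 0.45 for Amotl2, 0.39 for Ccn2 and 0.34 for Ankrd1, and the median range over all genes was 0.19. Ccn4, Ccn5 and Ccn6 did not pass (adjusted p = 0.433, 0.352 and 0.0727), with ranges of 0.16, 0.21 and 0.23. The 5 genes that passed did not share a course, as the plot of the members by time shows. Without replicate 1 or without replicate 3 at 22 h, 3 of the 8 genes passed. In both cases the calls for Ankrd1 (adjusted p = 0.0929 and 0.0877) and Amotl2 (0.0741 and 0.0776) were the ones lost, and that for Amotl2 was lost without replicate 2 at 46 h too (0.0608).

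**Figure D1:**
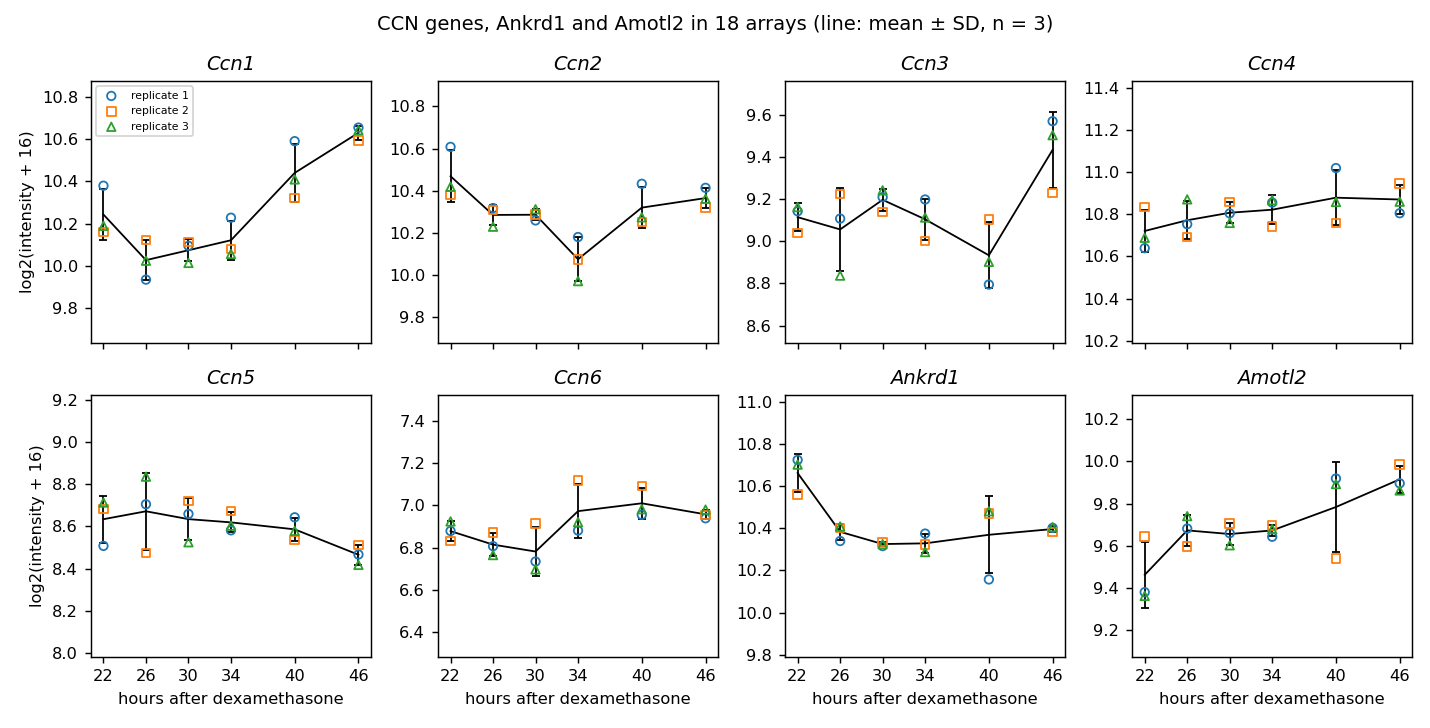
Level of each of the 8 genes, as quantile normalized log2(intensity + 16), against hours after dexamethasone; symbols are single arrays and the line joins time means ± SD (n = 3), with the same span on every vertical axis. Ccn1 was highest at 46 h (10.63) and Ccn2 lowest at 34 h (10.08), Ankrd1 stood highest at 22 h (10.66), and Ccn4 and Ccn5 ranged over 0.16 and 0.21.

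Ccn1, a ligand of integrins on fibroblasts and endothelial cells and an early response gene, was at its lowest from 26 to 34 h and at its highest at 46 h. Its 3 arrays gave 10.38, 10.16 and 10.19 (22 h), then 9.93, 10.12 and 10.02 (26 h), 10.09, 10.11 and 10.01 (30 h), 10.23, 10.08 and 10.06 (34 h), 10.59, 10.32 and 10.41 (40 h) and finally 10.66, 10.59 and 10.64 (46 h). All 3 arrays of 46 h lay above every array of the other times, but by little for 40 h. The lowest, replicate 2 of 46 h, stood at 10.593 and replicate 1 of 40 h at 10.591. The step from 40 to 46 h was 0.19 ± 0.08 (SE; adjusted p = 0.51, limma). In the order of the time means, which ran 26, 30, 34, 22, 40 and 46 h from low to high, all neighbours but 40 h and 46 h overlapped. As deposited, the intensity was 1559 ± 45.8 at 46 h and 1224 ± 122 at 22 h (SD, n = 3 each). The gene rose by 0.39 ± 0.08 (SE), or 1.31-fold, at 46 h relative to 22 h (adjusted p = 0.00123, limma). Relative to 34 h it rose by 0.51 ± 0.08 at 46 h (adjusted p = 0.000597), a comparison chosen after the values were seen. No single step between neighbouring times passed for Ccn1. The largest was the one from 34 to 40 h, at 0.32 ± 0.08 (adjusted p = 0.0578). A cosine of 24 h had an amplitude, the distance from mean to peak, of 0.26 ± 0.05 and a fitted peak at 42.1 h (adjusted p = 0.0486). The times span a single period, and such a cosine is equal at 22 and 46 h, where Ccn1 differed by 0.39. With a linear term in time added, the amplitude was 0.18 (adjusted p = 0.054, limma). Of the 8 genes Ccn1 was the 1 that passed the cosine, against 0.828% of all genes, and this call was lost under 19 of 29 other settings, with the replicate block among them (adjusted p = 0.0813). With array weights Ccn2 passed (0.0206) in place of Ccn1 (0.0676). These weights gave replicate 3 of 22 h 6.714, against 0.8215 and 0.3831 for replicates 1 and 2, so that 1 array dominated the 22 h mean. Ccn2 also passed as deposited (0.0477) and with the filter on dim genes (0.0485), and Ccn6 as deposited (0.0385) and with array medians set equal (0.0384). The Ccn1 call was lost without any 1 of 14 arrays, namely those of 26, 30, 34 and 46 h and replicates 1 and 3 of 40 h, with adjusted p from 0.0511 to 0.112. The F test and both differences at 46 h passed for Ccn1 under every setting run.

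Ccn2, the connective tissue growth factor that acts with TGF-beta in matrix production, had a low point at 34 h instead. Its arrays gave 10.61, 10.38 and 10.42 (22 h), then 10.32, 10.31 and 10.23 (26 h), 10.26, 10.29 and 10.31 (30 h), 10.18, 10.07 and 9.97 (34 h), 10.43, 10.25 and 10.27 (40 h) and finally 10.41, 10.32 and 10.36 (46 h). The 3 arrays of 34 h were below every other array of the series, while each pair of neighbours among the other 5 times, in the order of their means, overlapped. The deposited intensity averaged 1059 ± 88.9 at 34 h, against 1434 ± 154 at 22 h (SD, n = 3 each). At 34 h the difference of Ccn2 from the mean of the 2 outer times, 22 and 46 h, was -0.34 ± 0.06 (SE; adjusted p = 0.0366, limma). It was the 1 member past the threshold in that comparison, against 0.135% of all genes, 0.0401% being lower at 34 h. That call was lost without any 1 of 9 arrays, with adjusted p from 0.0516 to 0.166. These were replicates 1 and 3 at 22 h, 26 h and 46 h, replicate 1 at 30 h, and replicates 2 and 3 at 34 h. It was also lost when only the arrays of the 3 times entered the fit (adjusted p = 0.157).

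The 2 sides of the Ccn2 low point were set apart in comparisons chosen after the values were seen, which share the arrays of 34 h. Ccn2 fell by 0.39 ± 0.07 at 34 h relative to 22 h (adjusted p = 0.00126), and this held under all 28 other settings run. At 46 h it was higher than at 34 h by 0.29 ± 0.07 (adjusted p = 0.0215), a call lost when replicate 2 or 3 of 34 h, or replicate 1 or 3 of 46 h, was left out (adjusted p from 0.084 to 0.108), and with array medians set equal (0.0797). Of the 8 genes, 2 changed at 34 h relative to 22 h (9.44% of all genes), both lower (4.1%). At 46 h relative to 34 h 2 changed (3.57% of all genes), both higher (1.06%). At 46 h Ccn2 differed from 22 h by -0.10 (95% interval -0.25 to 0.04, adjusted p = 0.304), so a return to the level of 22 h and a modest shortfall are both within the interval. That interval is for quantile normalized values. With array medians set equal the difference was -0.20 (adjusted p = 0.0541, limma), so the size of any shortfall depended on the scaling.

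Ccn1 and Ccn2 are often read as 1 signal, and their change was compared array by array. From 22 to 46 h the change of Ccn1 exceeded that of Ccn2 by 0.49, and the difference between the 2 genes lay from 0.24 to 0.28 on the arrays of 46 h, against -0.23 to -0.22 on those of 22 h. The groups did not overlap, and the exact permutation test over arrays (two-sided) cannot give a p below 0.1 with 3 arrays against 3, the value it gave, so it could not pass 0.05. From 34 to 46 h the excess was 0.22, again without overlap. Within times the same 2 genes deviated together: the correlation of their deviations from the time means was 0.78 over the 18 arrays, and it was 0.46 for the levels themselves. Replicate 1 was the highest array of both genes at 4 of the 6 times (22, 34, 40 and 46 h). On each array the values of both genes come from the same RNA and labelling.

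**Figure D2:**
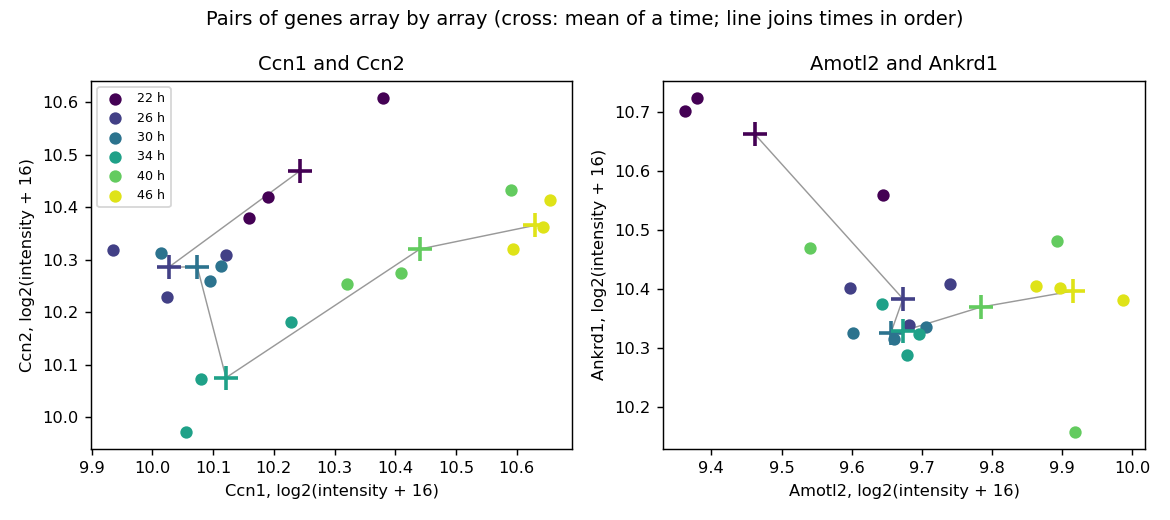
Left, Ccn1 on the horizontal and Ccn2 on the vertical axis, and right, Amotl2 and Ankrd1, both as log2(intensity + 16); each point is 1 array, coloured by time, crosses are time means and the line joins them in the order of time. Ccn1 means moved to 10.63 at 46 h while Ccn2 means stayed at or below 10.37 after 22 h, and Ankrd1 was highest on the arrays of 22 h, where the Amotl2 mean was lowest (9.46).

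Ankrd1, a nuclear and sarcomeric ankyrin repeat protein and a YAP target, was high at 22 h and lower at each later time. Its arrays gave 10.72, 10.56 and 10.70 (22 h), then 10.34, 10.40 and 10.41 (26 h), 10.32, 10.33 and 10.32 (30 h), 10.37, 10.32 and 10.29 (34 h), 10.16, 10.47 and 10.48 (40 h) and finally 10.40, 10.38 and 10.40 (46 h). Every array of 22 h was above every later array, and the later times overlapped with their neighbours in the order of means. Ankrd1 fell by 0.28 ± 0.07 (SE) at 26 h relative to 22 h (adjusted p = 0.046, limma), the only one of the 40 tests of 8 genes over 5 consecutive steps to pass in limma. In that step 2.19% of all genes were called and 1.23% were lower, and 4 of the 8 members had an unadjusted p under 0.05, as 14.4% of all genes did. No member passed any step without any 1 of 12 arrays, which were replicate 3 of 22 h, all those of 26, 30 and 34 h, and replicates 1 and 3 of 46 h. The difference of Ankrd1 at 46 h from 22 h was -0.27 ± 0.07 (adjusted p = 0.0115), and at 34 h from 22 h it was -0.33 ± 0.07 (adjusted p = 0.0057). The difference between 46 h and 34 h was 0.07, with a 95% interval from -0.08 to 0.22. Without replicate 1 or without replicate 3 at 22 h the difference at 46 h no longer passed (adjusted p = 0.0593 and 0.0518). The call at 34 h passed under all 28 other settings run. The comparisons of 34 h with 22 h and with 46 h were chosen after the values were seen. The differences of 26, 34 and 46 h from 22 h all rest on the same 3 arrays of 22 h, so they are not separate results. Replicate 1 at 40 h, at 10.16, was the lowest array of all.

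Amotl2, an angiomotin relative that holds YAP at junctions and in the cytoplasm and is itself a YAP target, ran the other way. Its arrays gave 9.38, 9.64 and 9.36 (22 h), then 9.68, 9.60 and 9.74 (26 h), 9.66, 9.71 and 9.60 (30 h), 9.64, 9.70 and 9.68 (34 h), 9.92, 9.54 and 9.89 (40 h) and finally 9.90, 9.99 and 9.86 (46 h). The arrays of 46 h were above all of 22 h, though replicate 2 of 22 h reached the levels of 26 to 34 h and replicate 2 of 40 h fell among the lowest. Amotl2 rose by 0.45 ± 0.09 (SE), or 1.37-fold, at 46 h relative to 22 h (adjusted p = 0.00131, limma), and this passed under all 29 other settings run. No step between neighbouring times passed for Amotl2, and the differences of 34 h from 22 h (0.21, adjusted p = 0.146) and of 46 h from 34 h (0.24, adjusted p = 0.167) were of like size. Both passed without the 2 arrays farthest out on the component within times (adjusted p = 0.0019 and 0.0104) and with array weights (0.00117 and 0.0485), and the first also without replicate 2 of 22 h (0.0284). Both differences, and the setting without 2 arrays, were chosen after the values were seen. On those 2 arrays Amotl2 departed most from its time means. The weights favoured replicate 3 of 22 h (6.714), the lowest Amotl2 array, over replicate 2 (0.3831). These settings are therefore no separate support for either difference. Deviations of Amotl2 within times followed that component with a correlation of 0.89 over 18 arrays.

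Ccn3, a member that often opposes Ccn2 in fibroblasts, was highest at 46 h. Its arrays gave 9.14, 9.04 and 9.16 (22 h), then 9.11, 9.22 and 8.84 (26 h), 9.21, 9.14 and 9.24 (30 h), 9.20, 9.002 and 9.11 (34 h), 8.79, 9.10 and 8.90 (40 h) and finally 9.57, 9.23 and 9.50 (46 h). The 46 h arrays lay above those of 22 h and 40 h, but replicate 2, at 9.23, was at the level of 30 h, and all neighbours in the order of means overlapped. The rise at 46 h relative to 22 h was 0.32 ± 0.10 (SE; adjusted p = 0.0317), and the step from 40 to 46 h, at 0.50 ± 0.10, did not pass (adjusted p = 0.0885). The rise was lost with the values as deposited (adjusted p = 0.0608), with array medians set equal (0.157), and without replicate 1, 2 or 3 at 22 h (0.0681, 0.0846 and 0.0582) or replicate 1 or 3 at 46 h (0.13 and 0.11), or both outlying arrays (0.0645). The F test was lost without replicate 1 or 3 at 40 h (0.0538 and 0.0558) and without replicate 1 or 3 at 46 h (0.1 and 0.0962). Deviations of Ccn3 within times had a correlation of -0.80 with the component within times, opposite in sign to that of Amotl2.

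The remaining CCN genes gave no call in the comparisons fixed for them. Ccn4, which WNT signalling induces, lay between 10.64 and 11.02 over the 18 arrays, with time means of 10.87 at 46 h and 10.72 at 22 h. Its difference between these times was 0.15 (95% interval -0.0019 to 0.30, adjusted p = 0.155). Ccn5, the member that lacks the C-terminal module, lay between 8.42 and 8.84. Its 3 arrays of 46 h (8.47, 8.51 and 8.42) were below all arrays of 40 h, but the step from 40 to 46 h did not pass (adjusted p = 0.761, limma). The 46 h arrays overlapped those of 22 h, with replicate 2 of 46 h at 8.513 above replicate 1 of 22 h at 8.508. The difference of Ccn5 at 46 h from 22 h was -0.17 (95% interval -0.34 to -0.00087, unadjusted p = 0.0489 and adjusted p = 0.147 in limma). Both differences passed with array weights (adjusted p = 0.0106 for Ccn4 and 0.0031 for Ccn5), under which replicate 3, with a weight of 6.714, dominated 22 h. The one for Ccn5 also passed with array medians set equal (0.0371), and the one for Ccn4 without both outlying arrays (0.0391). Their F tests passed with array weights as well (0.0263 and 0.0313). Ccn6 lay between 6.70 and 7.12, with a mean of 6.90, below the median of 7.08 of 41 marker genes of other cell types, and no detection call was used, so these values do not settle whether its RNA was present. The Ccn6 F test passed with the values as deposited (adjusted p = 0.00298), with array medians set equal (0.0165) and without replicate 2 of 30 h (0.0293), and its difference at 46 h passed as deposited (0.0421).

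At 46 h against 22 h, 4 of the 8 genes were thus called, against 21.2% of all genes. Ccn1, Ccn3 and Amotl2 rose, where 11.5% of all genes did, and Ankrd1 fell, where 9.73% did. The median difference over the 8 genes was 0.11, against 0.03 over all genes. Without replicate 1 or without replicate 3 at 22 h, 2 of the 8 remained past the threshold, Ccn1 and Amotl2. With array medians set equal, the differences at 46 h were 0.28 for Ccn1, 0.21 for Ccn3, 0.35 for Amotl2 and -0.37 for Ankrd1. Their size thus depended on the scaling. Fibroblast markers moved over the same interval: 6 of 10 rose and 0 fell, and the list averaged 11.99 to 12.04 on arrays of 46 h, against 11.61 to 11.75 on arrays of 22 h. The smooth muscle list averaged 9.61 to 9.69 on arrays of 46 h, against 9.54 to 9.60 on arrays of 22 h, with 2 of 6 genes higher. Muscle markers averaged 7.44 to 7.45 on arrays of 46 h, against 7.32 to 7.36 on arrays of 22 h, with 3 of 10 higher. Epithelial markers averaged 7.16 to 7.23 on arrays of 46 h, against 7.34 to 7.40 on arrays of 22 h, with 2 of 7 lower, Krt8 (-0.28) and Krt19 (-0.93). Of 5 cartilage and bone markers 2 were higher and 1 lower, of 7 endothelial markers 1 was higher, of 6 neural markers 1 was lower, and of 6 macrophage and blood markers 0 passed in limma. The part of these shifts in the values of the 8 genes was not tested.

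**Figure D3:**
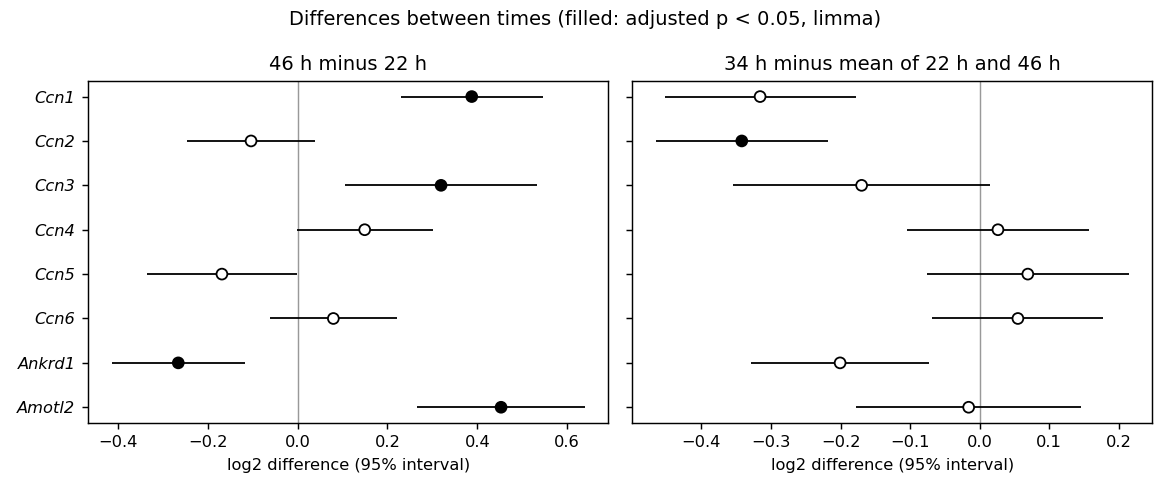
Log2 differences of the 8 genes with 95% intervals for 46 h minus 22 h (left) and 34 h minus the mean of 22 h and 46 h (right); filled points passed limma's test after adjustment over all genes. On the left Ccn1, Ccn3 and Amotl2 lie above 0 and Ankrd1 below it, and on the right the 1 filled point is Ccn2 at -0.34, with Ccn1 at -0.32 unfilled (adjusted p = 0.0651).

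In the comparison of 34 h with the average of both outer times, Ccn1 had a difference of -0.32 ± 0.07 (SE) and did not pass (adjusted p = 0.0651). It passed under 6 of 29 other settings, such as a filter on dim genes (0.035) and array weights (0.0098). The values of Ankrd1 and Ccn3 were -0.20 and -0.17 (adjusted p = 0.218 and 0.453), and that of Ankrd1 passed with array weights (0.0211). Amotl2, Ccn4, Ccn5 and Ccn6 had values from -0.02 to 0.07. In the 4 later steps no member passed in limma, while 0%, 0.0903%, 0.823% and 0.0351% of all genes were called from 26 to 30, 30 to 34, 34 to 40 and 40 to 46 h. At an unadjusted p under 0.05 the members counted 0, 2, 2 and 2 in these steps, where 2.59%, 9.72%, 12.5% and 8.11% of all genes had one, and for the step from 26 to 30 h, which called 0 of 19938 genes in limma, 517 genes had such a p.

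Signals and receptors upstream of the CCN genes were read from a list of 16 genes, 15 of them measured. The F test called 6, against 19.8% of all genes. At 46 h relative to 22 h 6 rose and 1 fell, with a median difference of 0.15, against 11.5% and 9.73% of all genes and a median of 0.03. Tgfb2, which encodes a TGF-beta ligand, rose by 0.73 ± 0.08 (SE; adjusted p = 2.41e-06). S1pr1, a receptor for sphingosine 1-phosphate, rose by 0.42 (6.96e-05), and Tgfbr3, the TGF-beta coreceptor betaglycan, by 0.35 (0.00012). Wnt5a, a WNT ligand of the non-canonical branch, fell by 0.50 (3.23e-05). Of 13 measured genes for integrins and other receptors of CCN proteins, the F test called 1, Itga6, the integrin alpha 6 subunit, which fell by 0.78 at 46 h (adjusted p = 0.00111), a smaller share than the 19.8% of all genes. For 46 h against 22 h, 4 of the 13 were higher and 1 was lower, beside 11.5% and 9.73% of all genes, with a median of 0.06.

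Of the Hippo pathway, which controls YAP, 23 of 24 listed genes were measured, and 4 were called by the F test, a share near that of all genes. These were Vgll4 and Vgll3, cofactors that bind TEAD in place of YAP, Amotl1, a relative of Amotl2, and Frmd6, an upstream regulator. At 46 h relative to 22 h 4 of the 23 rose and 1 fell, beside 11.5% and 9.73% of all genes, with a median of 0.08. Vgll3 rose by 0.69 (adjusted p = 2.23e-05), Vgll4 by 0.59 (5.87e-06) and Amotl1 by 0.29 (0.000327), while the difference of Frmd6, 0.15, did not pass (0.0874). The remaining calls, outside the rule for named genes and given after their values were seen, were Nf2, an upstream Hippo regulator, which rose by 0.16 (0.0325), and Tead4, a TEAD factor, which fell by 0.23 (0.0124). The genes for YAP itself and for TAZ, chosen for their role and not by the rule for named genes, had differences of 0.01 (Yap1, adjusted p = 0.915) and 0.10 (Wwtr1, 0.309). Transcript levels do not show the location of YAP in the cell.

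Other genes used as YAP and TAZ targets went both ways. Of 18 such genes, all measured, the F test called 8 (19.8% of all genes), and at 46 h relative to 22 h 5 rose (11.5%) and 4 fell (9.73%), with a median of 0.11. Tgfb2 is on this list too, and Gadd45a, a stress-induced growth arrest gene, rose by 0.65 (adjusted p = 1.73e-07), as did Ccdc80, a matrix protein, by 0.57 (6.47e-06). Foxf2, a mesenchymal transcription factor, fell by 0.48 (2.05e-05). A further list held targets of serum response factor and its actin-regulated cofactors, and also the genes of these factors, Srf, Mrtfa and Mrtfb. Of its 18 measured genes, 9 were called by the F test (19.8% of all genes), with Srf, Mrtfa and Mrtfb not among them. By limma 8 rose (11.5%) and 0 fell (9.73%) at 46 h relative to 22 h, with a median of 0.12. Myl9, a myosin light chain, rose by 0.72 (3.21e-05), Acta2, smooth muscle actin, by 0.30 (0.0011) and Fhl2, a LIM domain cofactor, by 0.30 (0.000476). Actg2, an actin of smooth muscle, was called by the F test (adjusted p = 0.000139) but differed by 0.11 between these 2 times (0.238). Lats2, Ptpn14 and Tgfb2 each stand on more than 1 list, and none of the 8 genes stands on any of the 5.

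**Figure D4:**
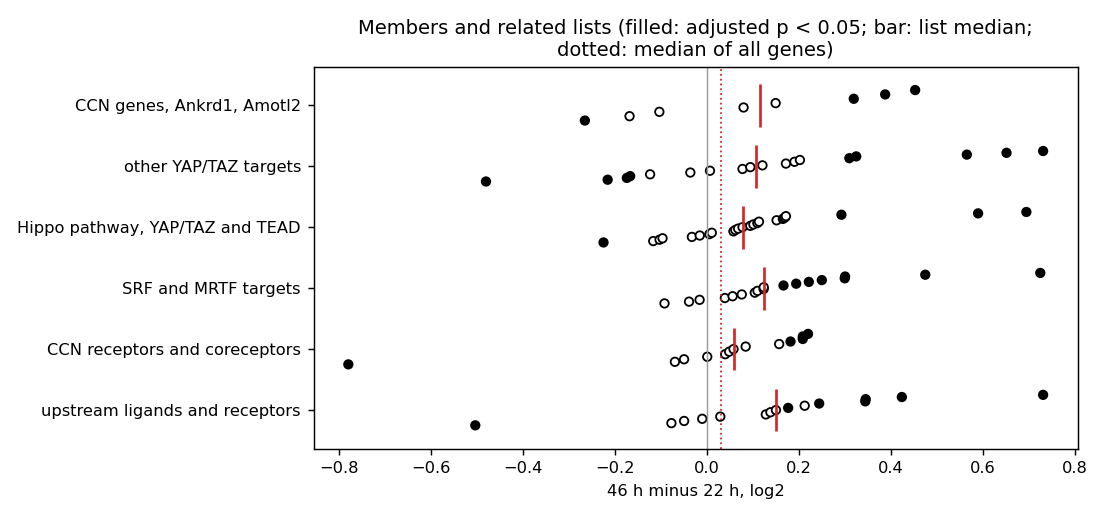
Log2 difference of 46 h minus 22 h for every measured gene of 6 lists, with filled points past limma's test, a bar at each list's median and a dotted line at the median of all genes (0.03). The 8 members spread from -0.27 to 0.45. The list of serum response factor, its cofactors and their targets holds 8 filled points above 0 and 0 below.

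For each of the 5 genes called by the F test, the 3 named genes with the most similar levels over the 18 arrays were listed, by Pearson correlation. For Ccn1 these were Errfi1, a feedback inhibitor of the EGF receptor (0.92), Klf5, a transcription factor (0.90), and Acta2 (0.89), and 0.00502% of all genes had a correlation over 0.9. For Ccn2 they were Agfg1 (0.85), Nip7 (0.84) and Atf6 (0.83), with 0% over 0.9. For Ccn3 they were Apc (0.86), Copa (0.85) and Stim2 (0.84). Ankrd1 was most like Uchl5 (0.90), Cks1b, a partner of cell cycle kinases (0.90), and Usp1 (0.89). Amotl2 was most like Prr5 (0.98), Zyx, the focal adhesion protein zyxin (0.97), and Tmem132a (0.96), and 0.482% of genes were over 0.9. Genes on the same arrays share samples and the component within times, so these values describe the arrays and no p is given.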

How the data were processed

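RNA of 18 samples was measured on Affymetrix whole-transcript arrays, 1 array a sample. Each probe set has a linear intensity as the authors deposited it. The submitters' processing notes name Affymetrix Expression Console 1.1 and PLIER 2.0, with settings not given in the sources used here. Of 35556 probe sets, 21789 had 1 gene symbol in the platform annotation, and 21698 of these matched RefSeq (GRCm38.p6) by gene identifier. The brightest probe set of a gene was kept, leaving 19938 genes. Values were taken as log2(intensity + 16) and quantile normalized, since array quartiles differed by up to 0.154 log2.

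limma 3.58.1 in R 4.3.3 fitted time means to all arrays, with lmFit and eBayes, for the F test and the differences, and a cosine of 24 h separately. P-values were adjusted by Benjamini-Hochberg over all genes, with a threshold of 0.05. The fits were also run on simulated data with independent noise for each gene. Such data lack the component shared within times, so they check the code and not the p-values of these arrays. Figures used matplotlib 3.10.9. The labels say biological replicate but not whether cultures were separate, so the p-values reflect only how these samples spread, which may be technical.

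The members and lists were chosen with earlier results of these data known. Genes named from a list are the up to 4 called by the F test with the smallest p; the 3 nearest genes by correlation pass over gene models without a full name. Alternatives covered normalization, the constant added, dim genes, all probe sets, a replicate block, array weights, the variance model, a linear term, and each array left out; 34 h against 22 h, 46 h against 34 h, and the fit without 2 arrays were added after seeing the data. Gene coordinates were used only for the promoter windows, and 0 sample columns were left unused.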

Additional observations from a re-analysis of the deposited data

How the results depend on the processing

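The 15 results of single members past the threshold were recomputed 426 times, and 53 of these values no longer passed. Among them the 9 differences, which alone carry a direction, kept it in all of their 257 values. With single arrays left out, the number of members called ran from 3 to 6 for the F test, from 2 to 4 for 46 h minus 22 h, from 0 to 2 for 34 h minus the mean of 22 h and 46 h, from 0 to 1 for the cosine and from 0 to 2 over the consecutive steps. The cosine called 3 members with the values as deposited, 2 with array medians set equal and 2 with the filter on dim genes. It called 0 with a constant of 1, with every probe set on its own, with a linear term and with the replicate block (limma, adjusted p for Ccn1 from 0.0502 to 0.0813). For 34 h, 2 members passed with a constant of 64, with the filter, with a variance trend and without the 2 outlying arrays, 3 with array weights, and 0 when only the 3 times were fitted. Over the steps, 0 passed with array medians set equal, with a constant of 1 and with the replicate block, 2 with a variance trend, 3 with a constant of 64 and with the filter, 4 without the 2 outlying arrays and 5 with array weights. At 34 h the sign of uncalled values turned for Ccn4 as deposited (-0.000343), and for Amotl2 with array weights (0.0342) and without both outlying arrays (0.0296). With single arrays left out, Amotl2 ran from -0.0409 to 0.0298, positive without replicate 2 of 22 h or of 46 h, and Ccn6 from -0.0171 to 0.101, negative without replicate 2 of 34 h. The cause was not tested in any of these cases. With the replicate block the F test called 5 members and 46 h minus 22 h 4, as without it. Over all genes, arrays of the same replicate number did not deviate alike in general. The median correlation of their deviations was -0.11, -0.11 and -0.09, and 3 of 18 arrays correlated best with their own number. Single pairs of replicate 2 ran from -0.56 to 0.49, so these values cannot settle whether some arrays were paired.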

Other observations

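Amotl2, Ccn4 and Ccn5 had correlations of 0.89, 0.77 and 0.68 with the largest component of that spread over 18 arrays, and Ccn3 and Ankrd1 had -0.80 and -0.62. The values for Ccn1, Ccn2 and Ccn6 were nearer 0, at -0.13, -0.32 and -0.16. Between genes, the deviations of Ccn4 and Amotl2 had a correlation of 0.79, those of Ccn3 and Amotl2 -0.74 and those of Ccn3 and Ccn4 -0.72. These are descriptions of the same arrays.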
